A study of Mus musculus with 6 samples.

Results

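The stretch of mouse chromosome 7 between 15 and 25 Mb (build mm9) surrounds Gipr, the gene inactivated in this study. Its members are the array probes whose deposited position starts in that stretch, without the Gipr probe and without probes named Zfp, Vmn1r or Psg. They number 229 of the 55668 non-control probes with a value on every array. The stretch holds 292 probes in all, of which 1 Gipr, 36 Vmn1r, 17 Psg and 9 Zfp probes were left out. The members carry 163 gene names. A total of 161 members (118 names) could be compared between genotypes, because in 1 genotype or both every array read them well above background. The stretch was proposed with the difference between genotypes already in view. Every difference between knockout and wild type given here is therefore a description of the values that led to the choice.

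Whole testes of C57BL/6 mice aged 8 weeks were profiled on 1-colour Agilent arrays, with 1 array for each animal. The knockout group consisted of 3 mice labelled GIPR KO (Gipr-/-), and the control group of 3 mice labelled wild type (Gipr+/+). Both groups carried the same strain label. The exons that were targeted, the stem cell line and the backcrosses are not given in the sources used here, so the loss of Gipr and DNA inherited together with the targeted allele cannot be told apart. All arrays sat on 1 slide, the knockouts in row 1 and the wild types in row 2, so genotype and slide row cannot be told apart either.

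Gipr encodes the receptor for the gut hormone GIP, which couples to cAMP. Rising cAMP activates transcription factors of the CREB family, which bind the sequence TGACGTCA. The surrounding chromosome is gene-dense and mixes unrelated functions: the apolipoprotein cluster around Apoe, nucleotide excision repair genes, splicing factors, kinases, members of the NF-kB family, carcinoembryonic antigen genes, and oocyte-expressed homeobox and NLR genes. Genes that lie close together on a chromosome are usually inherited together, and so are the sequence variants inside them.

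The probes behind the results are short synthetic oligonucleotides, and their sequences show what each value was read with. For the called probes and the region's leading genes, the first 30 bases are printed 5′ to 3′ as deposited, with CG pairs in capitals. The Nkpd1 probe lies at chr7:20110124-20110183 (+ strand), the probe of the predicted transcript ENSMUST00000108446 at chr7:20845894-20845953 (- strand) and that of the predicted gene Gm5156, now Gm4567, at chr7:21310076-21310135 (- strand).
Nkpd1: agtccttaaatttcaggagCGtagaggctg
ENSMUST00000108446: acatgaagaggctgtccatcagaaagttgc
Gm5156: ttagagaaagagaccctcatggaaaaaaga
Clasrp: cagaaaaCGgagttggggctgttatgctgc
Ppm1n: ttttttaacctatgctacaaggaggtggtg
Trappc6a: atggagggacattagggcatcacccagatg
Eml2, distal probe: gggaCGaatgggccaccatgccttgtggga
Eml2, proximal probe: tggtttctgctgaCGactttggcaaagtgc
The Clasrp probe lies at chr7:20166404-20166463 (- strand), the Ppm1n probe at chr7:19862172-19862231 (- strand) and the Trappc6a probe at chr7:20101428-20101487 (+ strand). The Eml2 probes lie on the + strand at chr7:19791721-19791780 and chr7:19789320-19789379. Exon and UTR boundaries on this build were not used here.

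Signal of the targeted gene separated the genotypes on every array. The Gipr probe (chr7:19742486-19742545) gave a processed signal of 154.5, 144.9 and 176.2 in the knockouts and of 781.9, 820.4 and 1042.5 in the wild types. On the log2 scale used below, it was lower in the knockout by a difference of -2.48 ± 0.12 (moderated SE, n = 3 each). Whether this probe lies inside the deleted part is unknown here. Array quality was even: 70.6% to 76.0% of the spots were well above background, 0 were saturated, and probe-level correlations were 0.9955 to 0.9966 within a genotype and 0.9941 to 0.9966 between genotypes. All 6 markers of round spermatids and all 6 of elongating spermatids were well above background on all 6 arrays, as the label whole testis asks. Fewer cells of a type and less RNA in each cell cannot be told apart in whole tissue.

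Of the 161 tested members, 3 fell in the knockout and 0 rose at an adjusted p under 0.05 (limma, adjusted over all 38895 tested probes). Over all tested probes the called share was 0.0463%, made up of 0.00514% higher and 0.0411% lower. At an unadjusted p under 0.05, 24 members read higher and 28 lower in the knockout. Those are 52 of 161 members, beside 7.66% of all tested probes. Since the contrast chose the stretch, nothing is read from these shares. The p-values rest on the spread among these 3 animals of each genotype, moderated by the spread over all tested probes.

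The called members are Nkpd1 and both predicted transcripts, and no other member named here passed the threshold in this fit. Nkpd1, which encodes a protein with a KAP-family P-loop NTPase domain, gave log2 values relative to the array's 75th percentile of -1.75, -1.54 and -1.62 in the knockouts and -0.55, -0.36 and -0.23 in the wild types. All 3 knockout testes lay below all 3 wild-type testes, and Nkpd1 fell 2.38-fold, a log2 difference of -1.25 ± 0.10. ENSMUST00000108446 gave -3.80, -3.83 and -4.14 against -2.24, -1.92 and -1.79, a difference of -1.94 ± 0.15 or 3.83-fold. Again the genotypes did not overlap.

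Gm5156 had the widest gap among the called members. Its values were -5.15, -4.76 and -5.25 in the knockouts and -3.07, -2.88 and -2.48 in the wild types, a difference of -2.24 ± 0.19 or 4.73-fold. These 3 probes share no run of 25 or more bases with any other probe on the array. The calls depended on the full set of animals: none of the 3 was called without knockout replicate 1, 2 or 3 or without wild-type replicate 2 or 3, and 2 of them, Nkpd1 and ENSMUST00000108446, were called without wild-type replicate 1. The calls also ended when dim probes were kept in the fit, and when the replicate number served as a block. With normexp background correction, followed by quantile scaling, the sizes were smaller, -1.15 for ENSMUST00000108446 and -0.98 for Gm5156, and Nkpd1 stood at -1.08. Here and below, that setting adds an offset of 50 to the signal, which by itself shrinks log2 differences of dim probes.

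A broader description counts the members whose 3 knockout values all lie above or all below the 3 wild-type values. This held for 63 of 161 members, 39.1%, beside 13.4% of all tested probes. The 63 divide into 30 higher (7.87% of all tested probes are of that kind) and 33 lower (5.49%). The higher members differed by 0.04 to 0.72 with a median of 0.34, and the lower members by -2.86 to -0.11 with a median of -0.38. The other 98 members overlapped between genotypes, and 65 of them differed by less than 0.1.

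The direction was mixed. The median difference of the 161 members was 0.009, as it was over all tested probes (0.009), whereas the median absolute difference was 0.125 against 0.0877. Differences of at least 0.5 were seen in 21 members, 13.0%, beside 2.64% of all tested probes. Those of at least 1 were seen in 6 members, all lower. The spread among replicates was alike, with a median residual SD of 0.118 in the members and 0.119 over all tested probes. That spread enters the p-values and the separation of the genotypes, but not the size of the differences.

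Along the chromosome the differences were found in most 1 Mb steps. At 16 to 17 Mb, 9 of 42 tested members separated the genotypes, at 17 to 18 Mb 13 of 27, at 19 to 20 Mb 15 of 38 and at 20 to 21 Mb 17 of 36. Over all tested probes the share was 13.4%. The directions were mixed on both sides of Gipr. At 19 to 20 Mb, 10 of the 15 read higher in the knockout, and at 20 to 21 Mb 11 of the 17 read lower. From 21 Mb on, 8 of 18 members were tested.

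The ends of the stretch are set positions, and the probes next to them are single readings. The first tested member, Sult2a7, a sulfotransferase gene at chr7:15050514-15050573, gave -2.99, -2.75 and -3.17 in the knockouts and -2.70, -2.47 and -2.75 in the wild types. The genotypes touched without overlapping, at a difference of -0.33 ± 0.13, or -0.17 with normexp. The last tested member, Gm6323, overlapped at -0.08 ± 0.10. Just outside, 2810007J24Rik before 15 Mb differed by -0.04 ± 0.08 and Zfp108 beyond 25 Mb by 0.09 ± 0.10, and both overlapped between genotypes.

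In 5 Mb windows, the stretch covered both windows with the largest shares of separated probes. Among 413 windows with at least 30 tested probes, and with the same name groups left out everywhere, the window at 20 to 25 Mb came first with 47.7% of 44 probes. The window at 15 to 20 Mb came next with 35.9% of 117 probes. The following ranks were a distant window of chromosome 7 at 65 to 70 Mb with 27.6%, chromosome 1 at 140 to 145 Mb with 27.0% and the X chromosome at 70 to 75 Mb with 25.8%. The adjoining window at 25 to 30 Mb, with 25.6% of 215 probes separated and 3 called, was rank 6. On the other side the share was lower, 11.1% at 10 to 15 Mb and 9.90% on all of chromosome 7 below 15 Mb. Because the stretch was chosen on this contrast, its ranks are a description.

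Clasrp, Ppm1n and Trappc6a, 3 of the region's leading genes, read higher in the knockout. Clasrp, an arginine- and serine-rich protein that binds a splicing kinase, gave 6.17, 6.29 and 6.18 in the knockouts and 5.67, 5.73 and 5.63 in the wild types. Every knockout value exceeded every wild-type value, at a difference of 0.54 ± 0.07. Ppm1n, a phosphatase of the PP2C family, gave -3.99, -4.01 and -4.01 against -4.47, -4.64 and -4.72. Its difference was 0.61 ± 0.08, and 0.22 with normexp background correction. Neither passed the adjusted threshold.

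Trappc6a, a subunit of the TRAPP vesicle-tethering complex, had closely grouped values. They were 5.18, 5.21 and 5.18 in the knockouts and 4.86, 4.82 and 4.82 in the wild types, a difference of 0.35 ± 0.05. The genotypes did not overlap. With the trend and robust variance model, Clasrp, Trappc6a and the distal Eml2 probe joined the called members, and with normexp Clasrp did.

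Other members had positive differences too, some of them as large or larger. C030044M21Rik, a clone without a current symbol (chr7:16732676-16732735), gave -3.52, -3.93 and -3.88 in the knockouts and -4.66, -4.41 and -4.44 in the wild types, at 0.72 ± 0.13 the largest positive difference among the members. Igsf23, an immunoglobulin superfamily gene listed as 2210010C17Rik, differed by 0.63 ± 0.11. Pglyrp1, which encodes an antibacterial peptidoglycan-recognition protein, differed by 0.62 ± 0.14 but was well above background on only 1 of 3 wild-type arrays and stood at 0.14 with normexp. Ccdc61, a coiled-coil gene, differed by 0.38 ± 0.10, Ceacam16, a carcinoembryonic antigen gene known from the inner ear, by 0.34 ± 0.10, and Dmpk, the myotonic dystrophy kinase, by 0.34 ± 0.14 at its separated probe. With normexp the latter genes stood at 0.21 (Ceacam16) and 0.067 (Dmpk), and Dmpk stood at 0.22 without knockout replicate 1.

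Hif3a, a subunit of hypoxia-inducible factors, depended on the probe. The probe at chr7:17616855-17616914 gave 0.78, 1.03 and 0.92 in the knockouts and 0.20, 0.26 and 0.57 in the wild types, a difference of 0.57 ± 0.12 without overlap. The probe at chr7:17636526-17636585 differed by 0.49 ± 0.20, also without overlap, but by 0.19 with normexp and 0.27 without knockout replicate 1. The remaining Hif3a probe overlapped at 0.03 ± 0.11.

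Members that read lower in the knockout included all 6 differences of at least 1. Eml2, a microtubule-binding protein, gave 0.72, 0.70 and 0.62 against 1.30, 1.12 and 1.16 at its distal probe, a difference of -0.51 ± 0.07. Its proximal probe gave -1.92, -1.99 and -2.10 against -1.48, -1.66 and -1.57, a difference of -0.44 ± 0.08. Both probes separated the genotypes in the same direction.

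Slc1a5, a plasma-membrane transporter of glutamine and other neutral amino acids, was lower at both of its probes. One, at chr7:17383359-17383418, gave -0.18, -0.60 and -0.61 in the knockouts and 0.26, 0.41 and 0.10 in the wild types, a difference of -0.72 ± 0.14. The other, at chr7:17383027-17383086, gave -2.44, -2.78 and -2.75 against -1.95, -1.90 and -2.10, a difference of -0.68 ± 0.11. No knockout value reached the wild-type range at either probe. Bcl3, an atypical IkB protein that binds NF-kB, differed by -0.47 ± 0.09. Pnmal1, a paraneoplastic antigen-like gene, was separated downwards at its own probe, -0.38 ± 0.08, and at the probe listed as 4930488B01Rik, -0.45 ± 0.12. C5ar2, a receptor for the complement fragment C5a listed as Gpr77, differed by -0.55 ± 0.11 at its separated probe.

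Single animals set some of the differences. Npas1, a bHLH-PAS transcription factor known from neurons, gave a processed signal of 21.8, 24.7 and 354 in the knockouts and of 435, 442 and 370 in the wild types. Knockout replicates 1 and 2 were far below the wild types, while knockout replicate 3 lay next to them. The difference was -2.86 ± 1.04 over all arrays and -4.16 ± 0.15 without knockout replicate 3, and among all settings tried it passed the adjusted threshold only there. With normexp background correction it was -1.73. The Npas1 probe lies at chr7:17041099-17041158.

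Its neighbours on the centromere side included others at which knockout replicate 3 was nearest the wild types, picked out after their values were seen. Bbc3 encodes PUMA, a pro-apoptotic BH3-only protein, and gave -1.61, -1.64 and -1.17 in the knockouts and -1.07, -0.90 and -0.71 in the wild types (chr7:16903403-16903462). Its difference was -0.58 ± 0.16, and -0.73 ± 0.12 without knockout replicate 3. At the Napa probe at chr7:16703264-16703323, which reads a SNARE-disassembly protein, the knockouts gave -1.54, -1.65 and -0.78 and the wild types -0.92, -1.08 and -0.80. Here the genotypes overlapped, with -0.39 ± 0.23 over all arrays and -0.66 ± 0.11 without that animal, and a different Napa probe differed by -0.05 ± 0.06. The separated C5ar2 probe in the same interval did not set this animal apart, with -5.40, -5.12 and -5.11 in the knockouts and -4.68, -4.51 and -4.78 in the wild types.

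A corresponding split occurred among the wild types at Gm6882, a predicted gene at chr7:22455688-22455747. Its processed signal was 2.04, 2.31 and 2.56 in the knockouts, none of them well above background, and 126, 78.6 and 2.94 in the wild types. Wild-type replicate 3 was thus at the knockout level, and Gm6882 did not enter the test, which asks for signal on all 3 arrays of a genotype. Without that animal it was tested and called. Gm5891, a further predicted gene in the same part, gave -6.18, -6.38 and -7.92 in the knockouts and -5.31, -5.12 and -5.01 in the wild types, but was well above background on only 1 of 3 knockout arrays.

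The apolipoprotein cluster lies distal to Gipr and held 12 tested probes in the list used for it. Of these, 3 separated the genotypes upwards and 5 downwards (7.87% and 5.49% of all tested probes do), and the median difference was -0.07. The upward probes belong to Clasrp, Clptm1 and Tomm40, which are neighbours and no apolipoproteins, and the downward ones to Apoe, Apoc1, Apoc2 and, with 2 probes, the neighbour Gemin7. Apoe, the lipid-carrying protein made by macrophages and steroidogenic cells among others, gave 3.44, 3.60 and 3.25 in the knockouts and 3.77, 3.70 and 3.85 in the wild types. All knockout values were below all wild-type values, at -0.34 ± 0.10.

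Apoc2, the activator of lipoprotein lipase, gave -3.84, -3.45 and -4.08 against -3.28, -3.06 and -2.57, a difference of -0.82 ± 0.23 without overlap, and -0.48 with normexp. Apoc1, a lipoprotein component next to Apoe, gave 1.63, 2.83 and 1.41 against 2.95, 2.86 and 3.28. Knockout replicate 2 was level with the wild types, and the difference of -1.07 ± 0.37 became -1.51 ± 0.15 without it. Tomm40, which encodes the mitochondrial import channel and lies beside Apoe, differed by 0.04 ± 0.06 and 0.01 ± 0.07 at its probes.

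Markers of cells that can make apolipoproteins were read on the same arrays, and 0 of them were called. Among 9 tested Leydig cell markers, 8 read lower in the knockout and 1 separated the genotypes (13.4% of all tested probes do), with a median of -0.44. Their summed level, in multiples of the array's 75th percentile, was 70.5, 119 and 61.2 in the knockouts and 134, 110 and 148 in the wild types, with the same knockout replicate 2 at the wild-type level as for Apoc1. Among 10 entries of the macrophage list, 8 read lower and 0 separated the genotypes. Their median was -0.17, with summed levels of 131, 148 and 125 against 141, 149 and 146. The entries Adgre1 and Emr1 are names of the same gene, which these counts, the median and the sums therefore take in under each name. All tested entries of both lists were well above background on all 6 arrays. The part of these cells in the apolipoprotein values was not tested.

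The list made for DNA repair held 5 tested probes, of which 0 were called. All 5 differences were above 0 with a median of 0.23, and 4 probes separated the genotypes upwards (7.87% of all tested probes do). Of the 4, however, 3 belong to Cd3eap and Opa3, which are not repair genes. Of other genes in that interval, Ppp1r13l, an inhibitor of p53, was separated downwards at -0.21 ± 0.07. Cd3eap, a subunit of RNA polymerase I, gave -0.57, -0.72 and -0.62 in the knockouts and between -1.13 and -0.94 in the wild types, a difference of 0.39 ± 0.08 without overlap. Opa3, a mitochondrial protein mutated in optic atrophy, differed by 0.48 ± 0.11 and 0.23 ± 0.09 at its probes.

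The repair genes themselves differed little. Ercc1, the partner of the XPF nuclease, gave 1.53, 1.49 and 1.53 in the knockouts and 1.35, 1.35 and 1.35 in the wild types. The genotypes were separate at a difference of 0.17 ± 0.05. Ercc2, a helicase of TFIIH, overlapped at 0.03 ± 0.06.

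Among 12 probes of RNA processing genes, Clasrp was the only one separated upwards, and 3 were separated downwards. Over all tested probes, 7.87% were separated upwards and 5.49% downwards, so the upward count was near that share. Sympk, a scaffold of mRNA 3′ end formation, gave 4.06, 4.08 and 3.81 against 4.33, 4.26 and 4.38, a difference of -0.34 ± 0.09. The knockout values were all lower. Gemin7, a member of the SMN complex, differed by -0.19 ± 0.06 and -0.13 ± 0.06. Snrpd2, a core spliceosomal protein whose probes lie next to the Gipr probe, gave 5.87, 5.95 and 5.78 in the knockouts and 5.79, 5.82 and 5.92 in the wild types at 1 probe. Both Snrpd2 probes overlapped, at 0.02 ± 0.07 and -0.09 ± 0.07.

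The list of cell death and NF-kB genes held 11 tested probes, 2 separated upwards (both Hif3a) and 3 downwards. Shares over all tested probes were 7.87% and 5.49%. Besides Bbc3 and Bcl3, the lower ones included Prkd2, a protein kinase D, at -0.27 ± 0.10, or -0.18 without wild-type replicate 2. Relb, an NF-kB subunit that lies between Clasrp and Bcl3, overlapped at all of its probes, with differences of -0.01, 0.03 and -0.13. Bcl3 on its distal side gave -0.26, -0.07 and -0.22 against 0.41, 0.21 and 0.23.

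Of 17 probes in the list of kinases, phosphatases and cytoskeletal genes, 3 were separated upwards and 5 downwards, and 1, Nkpd1, was called. Over all tested probes, 7.87% were separated upwards, 5.49% were separated downwards and 0.0463% were called. Calm3, a calmodulin gene, differed by 0.29 ± 0.07 at a separated probe and by 0.02 ± 0.06 at the probe with the brighter signal. Strn4, a striatin that binds PP2A, differed by -0.24 ± 0.08. In the list of membrane and vesicle traffic, 3 of 16 probes were separated upwards and 2 downwards, beside the same 7.87% and 5.49%. The higher ones were Trappc6a and both probes of Sae1, a SUMO-activating enzyme subunit that is not a traffic protein, at 0.25 ± 0.08 and 0.22 ± 0.07. The lower ones were both probes of Exoc3l2, an exocyst-like gene, at -0.31 ± 0.06 and -0.12 ± 0.06.

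Receptors and transporters gave 8 tested probes, 1 separated upwards and 4 downwards (7.87% and 5.49% of all tested probes were). The downward ones were both Slc1a5 probes, C5ar2 and Gng8, a G protein gamma subunit, at -0.34 ± 0.14. Gpr4, a proton-sensing receptor next to Eml2, overlapped at 0.12 ± 0.09.

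Many genes of the stretch that are known from other organs were dim in these testes. In the list of immunoglobulin-like adhesion proteins, 8 of 20 probes could be tested. Of these, 2 were separated upwards and 1 downwards, beside 7.87% and 5.49% of all tested probes. The upward ones were Igsf23 and Ceacam16, and the downward one was Nectin2, a cell-junction protein, at -0.11 ± 0.06. Bcam, a laminin-binding adhesion molecule, overlapped at -0.35 ± 0.13 (-0.19 with normexp). In the list of transcription factors outside the Zfp names, 9 of 22 probes were tested, and Npas1 alone was separated. That share is near the 13.4% of all tested probes. Mypop, a Myb-related factor, overlapped at 0.10 ± 0.08. Foxa3, a forkhead factor, overlapped despite its size, with -0.82 ± 0.31 (-0.33 with normexp) from -4.40, -4.92 and -5.35 against -4.60, -3.75 and -3.86.

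Of 6 tested probes in the list of testis-expressed genes, 1 was separated, the Calm3 probe named above. That share is near the 13.4% of all tested probes. Rsph6a, a radial spoke protein of the sperm tail, gave 3.99, 4.02 and 3.84 in the knockouts and 3.87, 3.89 and 3.96 in the wild types. These ranges overlapped at a difference of 0.04 ± 0.07. Dmwd, a WD-repeat gene beside Dmpk, overlapped at -0.10 ± 0.07.

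The members that did not enter the test were mostly silent. Of 68 such probes, 51 were well above background on none of the 6 arrays and 17 on some of them. They included 8 of 9 probes of the Obox homeobox genes, known from oocytes, 13 of 16 Ceacam probes and 3 of 6 Nlrp probes. The tested Obox probe, for Obox7 (listed as Gm4745), overlapped between genotypes at -0.12 ± 0.09. Of the tested Nlrp probes, 1 for Nlrp4e was separated downwards at -0.58 ± 0.13 (-0.25 with normexp), while a different, brighter Nlrp4e probe overlapped at -0.08 ± 0.13. The probe for Nlrp5, a maternal-effect gene of the egg, was separated upwards at 0.25 ± 0.09. The Nanos2 probe, for a gene of spermatogonial stem cells, was well above background on 1 array.

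Long noncoding loci added 24 probes, 18 of them tested. A single locus at chr7:16584852-16657252 supplied 8 tested probes for its forward and 6 for its reverse transcript, so these probes share a source. One forward probe was separated downwards at -0.11 ± 0.06 and 1 reverse probe upwards at 0.48 ± 0.09. The other 16 probes of such loci overlapped between genotypes, so the separated share was near the 13.4% of all tested probes.

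Probes of a gene read different stretches of its transcripts, and their comparison shows where a difference depends on the stretch. Among 28 names with more than 1 tested probe (71 probes), the probes had a single sign in 20. In 16 names at least 1 probe separated the genotypes, and 0 names had probes separated in opposite directions. All probes were separated the same way in 6 names, upwards for Opa3 and Sae1 and downwards for Eml2, Exoc3l2, Gemin7 and Slc1a5.

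The C5ar2 probes show the limit of such comparisons, because they overlap on the transcript by 44 of their 60 bases. Their first 30 bases are printed with the 14 bases common to both printed stretches in capitals.
C5ar2, chr7:16820101-16820160: cttgggcctaacaacaCACATACGGTTAAG
C5ar2, chr7:16820085-16820144: CACATACGGTTAAGgcattgcctattacct
The former overlapped between genotypes at -0.18 ± 0.09, and the latter was separated at -0.55 ± 0.11, or at -0.19 with normexp, although both read nearly the same place. In all, 16 members shared a run of at least 25 bases with some other probe. Crxos1, Gm6323, Snrpd2 and the C5ar2 probes are the named genes among them.

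Sequence composition, which the choice of the stretch did not use, had similar medians in these classes but different quartiles. The median GC content was 45.0% in the probes separated upwards, 45.0% in those separated downwards, 45.8% in the overlapping members and 43.3% over all tested probes. Lower and upper quartiles were 37.5% and 52.9% upwards, 45.0% and 55.0% downwards, and 43.3% and 55.0% in the overlapping members. Over all tested probes they were 36.7% and 45.0%. Members were detected as often as other probes, with 70.3% tested against 69.9% of all probes.

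Promoters were searched because the neighbours Trappc6a and Nkpd1, which run on the same strand, differed in opposite directions, and because Gipr acts through cAMP. Sequences of 250 bases before each transcript start came from RefSeq (GRCm38.p6) for 100 of 120 member genes with a current symbol, 117 promoters in all. They were searched on both strands for TGACGTCA and for its parts TGACG and CGTCA, which lie inside the full motif. The full motif was in 1 of 117, the Nkpd1 promoter, or 0.855%, beside 1.55% of all 32851 promoters. A partial or full match was in 27 of 117, 23.1%, beside 17.8% of all promoters. By class, it was in 34.8% of 23 promoters of genes separated upwards and in 15.4% of 26 of genes separated downwards. The overlapping genes had 32.5% of 40 and the untested genes 7.14% of 28. Some genes supplied several promoters, as those separated upwards came from 17 genes and those downwards from 19. Each part of the motif holds a CG pair, and the classes differed in CG pairs. Their median number per promoter was 9 upwards, 10 downwards, 13 in the overlapping and 1 in the untested genes, beside 6 over all promoters. Whether the classes differ in matches was not tested.

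The promoter of Nkpd1 (chr7:19518481-19518730, + strand, GRCm38.p6) and that of Trappc6a (chr7:19508420-19508669, + strand, GRCm38.p6) are printed with matches in capitals.
Nkpd1: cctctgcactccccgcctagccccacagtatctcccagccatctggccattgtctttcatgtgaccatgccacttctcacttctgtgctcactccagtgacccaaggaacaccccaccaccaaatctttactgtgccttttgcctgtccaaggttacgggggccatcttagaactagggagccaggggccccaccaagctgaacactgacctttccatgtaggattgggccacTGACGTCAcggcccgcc
Trappc6a: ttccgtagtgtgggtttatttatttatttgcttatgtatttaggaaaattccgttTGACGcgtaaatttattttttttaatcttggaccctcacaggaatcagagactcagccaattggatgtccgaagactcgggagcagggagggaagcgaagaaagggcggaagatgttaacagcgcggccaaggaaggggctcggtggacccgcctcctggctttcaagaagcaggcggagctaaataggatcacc
The full motif starts 17 bases before the Nkpd1 start. A match describes letters in a window, and binding was not measured.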

How the data were processed

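Testis RNA of 6 mice, 3 for each genotype, was hybridised to 1 array per mouse. Per the file headers, the deposited intensity values were read with Agilent Feature Extraction 10.7.3.1 as a background-corrected processed signal on a linear scale. The authors' value table is that intensity times 1 factor for each array (median 200) and served as an alternative. Outlier spots (117 to 149 per array) were left out, spots of a probe averaged on the log2 scale, and the array's 75th percentile subtracted. A total of 13 probes without a remaining spot were dropped. Levels compare arrays at a probe, never different probes. The 38895 probes that every array of 1 genotype or both read well above background were fitted in limma 3.58.1 (R 4.3.3; lmFit, eBayes, no covariate, two-sided, Benjamini-Hochberg, called at adjusted p under 0.05), after a test on simulated data. The number of arrays limits the precision.

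Positions are the deposited ones on mm9; RefSeq (GRCm38.p6) served for names and promoters. Of 229 members, 142 kept a current symbol, 19 were renamed by accession, 2 by older symbol, and 66 had none; 3 untested members are now named Vmn1r. The members and lists were chosen with earlier results of these data known. Named are the region's 7 leading genes, every called member, up to 12 per direction with a symbol, the largest differences and separated genotypes, up to 4 of lowest p in each list, the first and last tested member with their outer neighbours, and Gipr. Any further gene was named after its values were seen. A member of the receptor list is not reported here. Of the 11 region lists, that for Ly6 and uPAR proteins had 0 members in the stretch. Alternatives changed the scaling, background correction, filter, source of values, unit, variance model, array weights, replicate block and each array in turn.

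The other marker lists gave medians of 0.10 (10 Sertoli cell genes), 0.12 (6 peritubular myoid), -0.03 (6 spermatogonial), 0.07 (6 spermatocyte), -0.10 (6 round spermatid), -0.01 (6 elongating spermatid), -0.02 (6 endothelial), -0.05 (6 blood), -0.26 (3 epididymis) and -0.22 (3 adipose). Of the Sertoli cell genes, 7 read higher in the knockout and 3 were separated upwards. All 6 peritubular myoid genes read higher, 1 of them separated. Downwards, 2 endothelial genes were separated and 1 each in the spermatocyte, elongating spermatid and epididymis lists. Over all tested probes, 7.87% were separated upwards and 5.49% downwards.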

Additional observations from a re-analysis of the deposited data

How the results depend on the processing

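The count of called members, 3, was 3 with quantile or median scaling, array weights, the authors' value table, the brightest probe of each gene, or probes above background on all arrays, and 4 with normexp. It was 6 with the trend and robust variance model and 0 without a filter on dim probes, where 47 members had an unadjusted p under 0.05. With the replicate block it was also 0, with 44 at an unadjusted p under 0.05, and replicate numbers did not pair the animals: correlations of deviations between same-numbered arrays were 0.058, -0.024 and -0.003. Leaving out 1 array gave 0 to 2 calls: 0 without knockout replicate 1 or 2 or wild-type replicate 2, 1 without knockout replicate 3 (Npas1) or wild-type replicate 3 (Gm6882), and 2 without wild-type replicate 1. Members separated between genotypes numbered 60 to 68 under the other settings on all arrays, 49 of 116 with 1 probe for each gene, and 69 to 87 with an array left out; the 87, without knockout replicate 2, stood beside 34.3% of all probes. The median absolute difference ranged from 0.106 (0.0618 over all probes) with normexp to 0.165 (0.126) without a filter. Of the alternative values of the named members, 742 kept direction and call, 22 lost and 5 gained a call, and 1 turned, the brighter Calm3 probe, which was -0.0074 without knockout replicate 2 and up to 0.0427 with another array left out.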
